A study of Mus musculus with 8 samples.

Results

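The genes described here are the collagens, lysyl oxidases and other matrix proteins of the mouse dorsal root ganglion, followed before and after inflammation of a hind paw. They were chosen by name from the table of counts: every collagen chain, the lysyl oxidases Lox and Loxl1 to Loxl4, the matrilins, the laminin chains, the fibulins, fibronectin (Fn1), tenascin-C (Tnc) and the thrombospondins Thbs1 to Thbs4, where the mean over all libraries was at least 0.5 CPM, the counts of a gene as a share of its library in units of 1000000. Of 24421 genes in the table, 74 had such a name and 66 reached the minimum, among them 39 collagen chains. The lowest gene inside the limit was Col10a1, with a mean of 0.659 CPM, and the nearest outside it was Col4a6, with 0.331 CPM. All 66 were among the 17328 genes that had enough counts to be tested.

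The extracellular matrix is the protein scaffold around cells. Collagen chains wind into triple helices, fibrillar collagens such as type I and type III are packed into fibres, and type IV collagen forms the sheet of the basement membrane together with laminins. Lysyl oxidases are copper enzymes that join collagen and elastin molecules by covalent cross-links, while matrilins, fibulins, fibronectin, tenascin and thrombospondins connect the fibres with each other and with cells. In a sensory ganglion, matrix is found in the connective tissue capsule, around blood vessels, and in the basement membranes of Schwann cells and of the satellite glia that wrap each neuron.

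The animals were male C57BL/6J wild-type mice, at least 8 weeks old, and the ganglia were those of lumbar levels L3 to L5. The 0d group was taken before injection, and the 1d, 3d and 30d groups were taken 1, 3 and 30 days after 20 µl of 1% carrageenan, a seaweed polysaccharide that inflames tissue, had been injected under the skin of the left hind paw. Each day had 2 libraries, each of RNA from the pooled ganglia of 2 to 3 mice and not of single animals, and no group received an injection without carrageenan. The comparisons ask how ganglion expression differs from the 0d control on each later day, and how it differs between the later days.

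The labels name neurons as the cell type, but whole ganglia were dissected. The summed level of 15 neuron markers was 26010 to 27720 CPM per library, and 10 Schwann cell markers summed to 6098 to 11640 CPM, 6 satellite glia markers to 2471 to 2983 CPM and 11 fibroblast markers to 831.5 to 1080 CPM. Total counts ran from 44123208 to 73580338 per library, of which the matrix genes took 0.281% to 0.405%. In such bulk tissue, fewer cells of a type and less RNA per cell cannot be told apart.

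Levels between genes can be compared only per length, here as mean CPM per kilobase (kb) of exon over all 8 libraries. By that measure the type I collagen chains led, with Col1a2 at 76.6 and Col1a1 at 56.8 CPM per kb, followed by the matrilin Matn2 at 35.5, the type III chain Col3a1 at 34.3 and the fibulin Fbln2 at 31.7. The basement membrane was represented by Col4a1 at 27.0 and Col4a2 at 17.95 CPM per kb, and by the laminin chains Lamb1 at 21.8, Lamc1 at 14.8 and Lamb2 at 13.8. Col28a1, a collagen known from peripheral nerve, stood eighth with 21.2 CPM per kb. Among the lysyl oxidases, Lox was at 10.2 CPM per kb and the other four between 1.16 (Loxl2) and 3.88 (Loxl3). The bottom of the order held Col22a1 with 0.132, Col10a1 with 0.211 and Col6a5 with 0.223 CPM per kb. The levels spanned a wide range also within classes, as in the transmembrane collagens, where Col23a1 was at 10.7 CPM per kb.

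**Figure D1:**
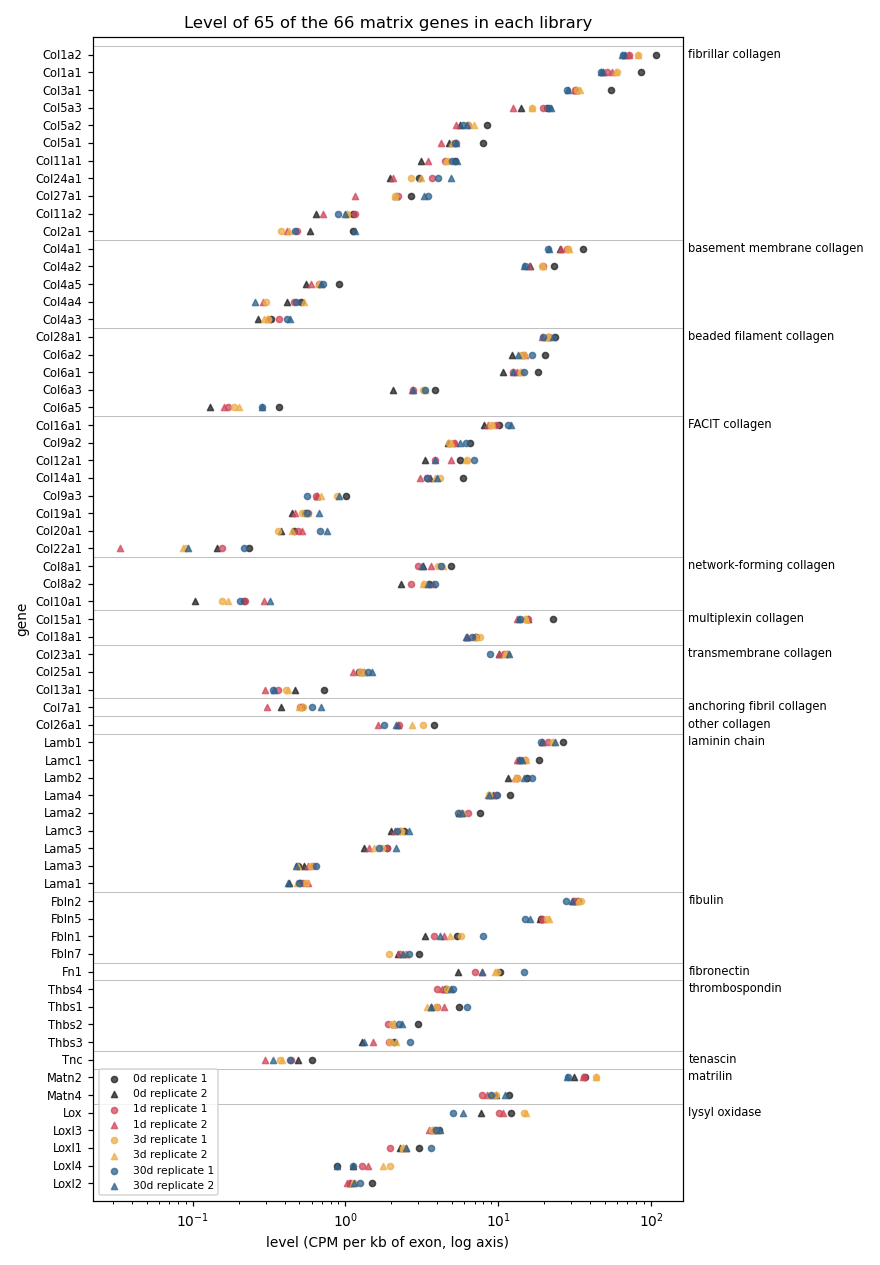
Level of 65 of the 66 matrix genes in each library, as CPM per kb of exon on a log axis, ordered by class and then by mean level. Colours mark days and symbols mark the replicate. The black circle (0d replicate 1) lies at the right end of the row for 30 genes.

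Before any comparison with 0d, it must be stated that the 0d pools stood apart from each other in these genes. Of the 66 matrix genes, 63 were higher in 0d replicate 1 than in 0d replicate 2, whereas 49.0% of the 15491 genes of the table with at least 0.5 CPM were. The median log2 ratio of the pools was 0.50 for the matrix genes, and 33 of them had a ratio beyond 0.5 on the log2 scale. In absolute size the log2 ratio of all genes had a median of 0.10. The exceptions were Loxl4, Lama3 and Col25a1, which were higher in replicate 2.

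The size of the gap varied among the genes. Col1a1 had 403.8 CPM in 0d replicate 1 and 227.0 in replicate 2, Col3a1 had 302.3 and 178.3, and fibronectin had 85.9 and 45.9. The microfibrillar chain Col6a3 had 41.8 CPM in 0d replicate 1 and 22.1 in replicate 2. By contrast, Fbln5 had 111.8 and 111.0 CPM, Thbs4 had 14.6 and 14.2, and Fbln2 had 148.1 and 138.2. The widest log2 ratios, 1.51 and 1.06, were those of the low chains Col6a5 and Col10a1, so wide gaps were found in several classes.

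On the other days the pools were closer. Summed over the 66 genes, the level was 4060 CPM in 0d replicate 1 and 2808 in 0d replicate 2, against 3109 and 2947 in the 1d pools, 3338 and 3337 in those of 3d, and 3036 and 2972 in those of 30d. The 3d pools had the smallest gap of the 4 days for 39 of the genes. For 47 genes the gap between the 0d pools was larger than the whole range of the 1d, 3d and 30d means. The highest library was 0d replicate 1 for 30 genes and 0d replicate 2 for none, while 0d replicate 2 was the lowest for 21.

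**Figure D2:**
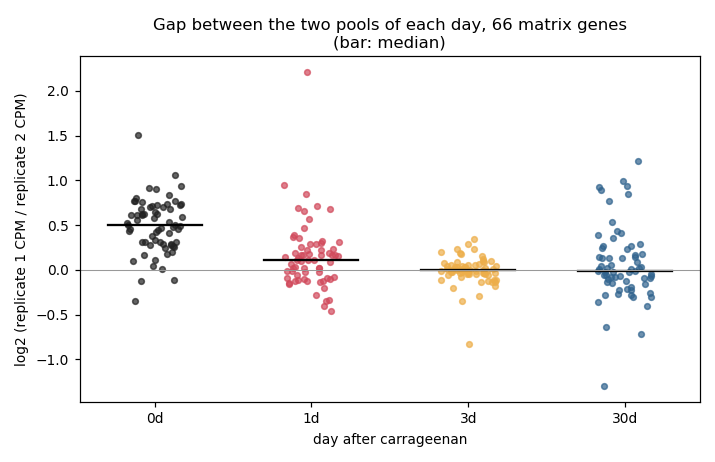
Log2 ratio of replicate 1 to replicate 2 for each of the 66 matrix genes (points) on each day, with the median as a bar. The 0d points lie above 0 for 63 genes, with a median of 0.50, and the 3d points are centred on 0.

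Markers of several other cell types moved with this gap, and the lists of neurons and satellite glia did not. All 11 fibroblast markers were higher in 0d replicate 1, with a summed level of 1080 CPM against 852.5, as were all 11 leptomeninges markers (241.6 against 143.1 CPM), all 11 skeletal muscle markers (182.4 against 96.1 CPM) and 9 of 10 Schwann cell markers (11640 against 8700 CPM). Of 15 neuron markers, 5 were higher there, with 27510 against 27000 CPM, and of 6 satellite glia markers 3 were (2983 against 2958 CPM). Of 10 endothelial markers 6 were (203 against 188.6 CPM), and of 9 mural markers 8 (227.2 against 205.1 CPM). Of 8 macrophage markers 6 were (82.4 against 67.4 CPM), and of 11 tested cartilage and bone markers 10 (94.3 against 81.6 CPM). In the 8 libraries, the lowest and highest sums were 143.1 and 374.5 CPM for leptomeninges and 28.8 and 182.4 CPM for muscle, and no marker of either list was at 0 on average. Their part in the differences of the matrix genes was not tested. Of the 11 fibroblast markers, 5 are also on the list of small proteoglycans and fibre proteins described further on.

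At 1d none of the 66 matrix genes differed from 0d by edgeR's quasi-likelihood test with Benjamini-Hochberg adjustment, in a comparison in which 0.346% of all tested genes were called. The limma-voom and DESeq2 tests also called none. An unadjusted p under 0.05 was found for 6 of them, and for 4.47% of all genes. The median log2 fold change was -0.13 over the matrix genes and 0.00 over all genes, with 16 matrix genes above 0 and 50 below. Of the marker lists, 0 of 11 skeletal muscle markers (median -1.22) and 0 of 11 tested cartilage and bone markers (-0.12) were above 0 here. The same held for 1 of 10 Schwann cell markers (-0.19), 1 of 6 satellite glia markers (-0.15), 3 of 10 endothelial markers (-0.05) and 2 of 9 mural markers (-0.03). Other lists were mixed, with 6 of 11 fibroblast markers (0.03) and 5 of 11 leptomeninges markers (-0.03) above 0. So were 4 of 8 macrophage markers (0.01) and 10 of 15 neuron markers (0.03). The part of these lists in the comparison was not tested. The direction in the matrix genes hung on 1 pool: the median was 0.11 with 0d replicate 1 left out, with no gene called (0.202% of all genes), and -0.38 with 0d replicate 2 left out, with 10 called lower, 9 of them collagens (0.483% of all genes called in either direction).

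Of the 6 genes with an unadjusted p under 0.05 at 1d, Loxl4 had a fitted difference above 0 (log2 fold change 0.43, adjusted p = 0.97), and Matn4, Col26a1, Col13a1, Tnc and Thbs2 had one below 0. Matn4, a matrilin, had 30.1 and 24.8 CPM at 0d and 20.0 and 21.8 at 1d (log2 fold change -0.39 ± 0.12 (SE), adjusted p = 0.497). Col26a1 had 10.2 and 6.02 CPM at 0d and 6.11 and 4.40 at 1d, with an adjusted p of 0.985. Col13a1, a transmembrane collagen, had 2.29 and 1.48 CPM at 0d and 1.14 and 0.935 at 1d, with an adjusted p of 0.978. For Matn4 and Col13a1 the libraries of the days did not overlap, while those of Col26a1 did. In all, 16 of the 66 genes had 1d libraries that did not overlap with those of 0d, 6 of them higher and 10 lower, and this held for 31.9% of all genes (15.5% higher and 16.4% lower).

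At 3d, 2 matrix genes had risen, Matn2 and Loxl4, in a comparison that called 0.219% of all genes (0.19% higher and 0.0289% lower). The other 64 did not pass, and 4 in all had an unadjusted p under 0.05, against 5.94% of all genes. The median log2 fold change of the 66 genes was -0.03, with 27 above 0 and 39 below. It was 0.18 without 0d replicate 1, with 5 genes called higher (Col1a1, Col1a2, Col6a3, Lox and Matn2, where 0.146% of all genes were called), and -0.25 without 0d replicate 2, with 7 called lower (Col15a1, Col1a1, Col1a2, Col3a1, Col4a1, Col5a1 and Lama4) and Loxl4 called higher (0.354% of all genes). Col1a1 and Col1a2 were thus called in opposite directions according to which untreated pool was kept.

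Matn2 encodes matrilin-2, an adaptor protein that binds collagen and other matrix components. It had 130.4 and 110.01 CPM in the 0d pools, 128.1 and 126.3 in those of 1d, 152.6 and 152.6 in those of 3d, and 100.1 and 98.8 in those of 30d. Both 3d libraries were above, and both 30d libraries below, every other library. The rise from 0d to 3d was 0.34 ± 0.06 on the log2 scale (SE, n = 2 and 2, adjusted p = 0.0484). With 0d replicate 2 left out it was 0.23 and no longer passed (adjusted p = 0.135), and without 0d replicate 1 it was 0.47. Leaving out either 1d or either 3d library also ended the call, with adjusted p values of 0.0968 to 0.594. In all, the rise of Matn2 passed in 9 of 20 alternatives, and it was lost in 6 of the 12 that did not leave out 1 library in turn. Matn2 lies on chromosome 15 (34306681 to 34436240, plus strand, mm10), and 1.99% of its exon length is shared with the overlapping gene 9430069I07Rik, whose reads could have been counted for both.

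Loxl4 encodes a further enzyme of the lysyl oxidase family and was expressed at a low level. It had 4.78 and 6.10 CPM in the 0d pools, 7.01 and 7.64 in those of 1d, 10.7 and 9.63 in those of 3d, and 6.11 and 4.78 in those of 30d. The 3d pair was the highest, with no overlap with any other day, and the 0d and 30d pairs overlapped. The rise from 0d to 3d was 0.90 ± 0.17 on the log2 scale (adjusted p = 0.0467), a 1.87-fold higher mean. It did not pass without 0d replicate 1 (log2 fold change 0.74, adjusted p = 0.275), nor when either 1d or either 3d library was left out (adjusted p from 0.0739 to 0.902), and it passed in 13 of 20 alternatives. Unlike most of the matrix genes, Loxl4 was lower in 0d replicate 1 than in replicate 2.

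**Figure D3:**
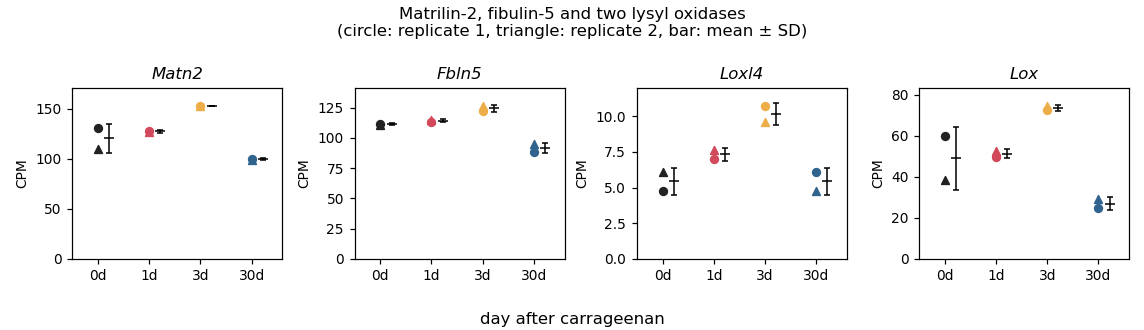
CPM of Matn2, Fbln5, Loxl4 and Lox in each library by day, with circles for replicate 1, triangles for replicate 2, and bars for mean ± SD. In all 4 genes both 3d libraries are the highest, and in Matn2, Fbln5 and Lox both 30d libraries are the lowest.

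Lox, the best known lysyl oxidase, gave the largest difference between days of any gene with at least 2 CPM here. It had 59.9 and 38.1 CPM in the 0d pools, 49.5 and 52.6 in those of 1d, 72.6 and 74.4 in those of 3d, and 24.8 and 29.0 in those of 30d. The 3d libraries lay above and the 30d libraries below all others, while the 0d pools differed 1.57-fold. The 3d mean was 2.73 times the 30d mean. The difference between 30d and 3d was -1.45 ± 0.23 on the log2 scale and did not pass in the fit of all libraries (adjusted p = 0.105), which takes 1 spread for all days. With the 0d libraries left out of the fit the adjusted p was 4.29e-07, and with the 3d and 30d libraries alone it was 3.53e-05; over its alternatives it ran from 2.65e-13 to 0.614. Against 0d, Lox had a log2 fold change of 0.59 at 3d (adjusted p = 0.839) and -0.86 at 30d (adjusted p = 0.289).

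Of the other lysyl oxidases, Loxl1, which acts on elastic fibres, had 7.60 to 10.1 CPM at 0d, 7.89 and 7.96 in the 3d pools, and 8.34 and 12.1 in those of 30d. Loxl2 had 5.54 to 7.73 CPM at 0d and 5.34 to 6.45 CPM afterwards. Loxl3 stayed between 14.3 and 16.8 CPM in all libraries, with 13.2% of its exon length shared with Htra2. None of these was called in any comparison in the fit of all libraries, and within the family the 3d libraries were the highest for Lox and Loxl4, whereas the fitted difference between 30d and 3d lay above 0 for Loxl1, Loxl2 and Loxl3.

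Between 1d and 3d no matrix gene was called, and 0.289% of all genes were. The limma-voom test also called none, DESeq2 called 1 (and 0.635% of all genes), and 4 had an unadjusted p under 0.05, against 4.24% of all genes. The median log2 fold change was 0.10 over the matrix genes and 0.00 over all genes, with 50 matrix genes above 0 and 16 below. Leaving out a 0d pool could barely move these values, by construction, since neither day compared was touched. Without 1d replicate 1 the median was 0.19, with 53 matrix genes above 0. Without 1d replicate 2 it was 0.03, with 39 above 0. With 3d replicate 1 or 3d replicate 2 left out, it was 0.11 or 0.10, with 51 above 0 in each. The 3d libraries of 30 of the 66 genes lay entirely above those of 1d and those of 5 entirely below, where 20.0% and 17.6% of all genes did so. All 10 Schwann cell markers (median 0.18) and 10 of 11 skeletal muscle markers (median 0.42) were also above 0. The muscle markers summed to 39.8 and 84.5 CPM at 1d and to 85.2 and 82.9 CPM at 3d, so only 1d replicate 1 stood apart. Above 0 were also 7 of 11 fibroblast (0.05), 6 of 11 leptomeninges (0.08) and 5 of 6 satellite glia markers (0.04). Of the neuron markers 10 of 15 were (0.02), of the cartilage and bone markers 8 of 11 (0.09), and of the macrophage markers 2 of 8 (-0.10). The part of these lists in the comparison was not tested. This comparison does not involve the 0d values except through the shared spread. With the 0d libraries left out of the fit, 3 were called higher at 3d, Col1a2, Lox and Matn2, as 0.355% of all genes were called. For Col1a2 the 1d libraries had 366.4 and 370.3 CPM and the 3d libraries 421.4 and 423.2 CPM, a log2 fold change of 0.20 (adjusted p = 1.00 in the fit of all libraries).

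At 30d none of the 66 genes differed from 0d by the edgeR test, which called 0.0231% of all genes. The limma-voom test called none and DESeq2 called 4 (and 1.06% of all genes). Of the 66, 11 had an unadjusted p under 0.05, against 12.3% of all genes. The median log2 fold change was -0.06, with 29 above 0 and 37 below, and it was 0.15 without 0d replicate 1 (4 called higher, 1 lower, and 0.505% of all genes) and -0.24 without 0d replicate 2 (11 called lower, and 0.157% of all genes). Lox was called lower whichever of the 0d pools was left out. Fbln5 came nearest to the threshold in the fit of all libraries, with a log2 fold change of -0.28 ± 0.05 (adjusted p = 0.0554).

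The widest set of calls came from 30d against 3d. There 3 of the 66 matrix genes had fallen, Matn2, Fbln5 and Loxl4, and none had risen, in a comparison that called 0.935% of all genes (0.727% lower and 0.208% higher). Unadjusted p values under 0.05 were found for 11 of the 66 and for 13.01% of all genes. The median log2 fold change was 0.04, with 37 genes above 0 and 29 below, so the genes lay on both sides of 0. The same 3 genes were the only ones called in the test of any difference between the days, in which 1.02% of all genes were called.

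Fbln5 encodes fibulin-5, an elastic fibre protein that also binds cells and recruits Loxl1. It had 111.8 and 111.0 CPM in the 0d pools, 113.5 and 115.1 in those of 1d, 122.6 and 126.4 in those of 3d, and 88.5 and 94.8 in those of 30d. The 30d libraries lay below all others and the 3d libraries above, and the 0d pools differed by less than 1 CPM. Between 3d and 30d the level fell by 0.44 on the log2 scale (SE 0.05, adjusted p = 0.000567). Matn2 fell by 0.62 (SE 0.06, adjusted p = 0.000567) and Loxl4 by 0.90 (SE 0.17, adjusted p = 0.0218). Both Matn2 and Fbln5 were called in each of 21 alternative analyses, with adjusted p up to 0.0190 and 0.0299. Loxl4 was called in 18 and missed when either 3d library or 30d replicate 2 was left out.

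To show the regions from which transcription of called genes starts, the promoter windows of Fbln5 and Loxl4 are printed, each from 250 bases before to 50 bases after the RefSeq start (GRCm38.p6, the assembly of mm10). Fbln5 is on the minus strand of chromosome 12 with its window at chr12:101819070-101819369, and Loxl4 on the minus strand of chromosome 19 with its window at chr19:42612757-42613056. The sequences run 5′ to 3′ on the gene's strand. Capitals mark matches on either strand to 6 motifs: TATAAA, known as the TATA box, CCAAT, bound by factor NF-Y, GGGCGG, known as the GC box and bound by Sp1, TGANTCA, the AP-1 motif, ACGTG, the core of the hypoxia response element, and CAGAC, a SMAD element.
Fbln5: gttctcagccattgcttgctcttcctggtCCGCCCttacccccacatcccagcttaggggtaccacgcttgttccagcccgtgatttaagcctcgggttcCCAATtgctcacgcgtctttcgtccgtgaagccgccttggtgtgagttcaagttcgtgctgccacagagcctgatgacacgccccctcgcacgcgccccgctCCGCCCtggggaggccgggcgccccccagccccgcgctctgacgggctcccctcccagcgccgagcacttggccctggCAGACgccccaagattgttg
Loxl4: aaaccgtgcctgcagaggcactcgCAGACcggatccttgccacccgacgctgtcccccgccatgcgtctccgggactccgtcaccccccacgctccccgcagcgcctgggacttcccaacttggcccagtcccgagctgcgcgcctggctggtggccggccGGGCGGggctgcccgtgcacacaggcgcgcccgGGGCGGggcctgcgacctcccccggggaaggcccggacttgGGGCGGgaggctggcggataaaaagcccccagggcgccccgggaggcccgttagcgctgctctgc
The Fbln5 window held 2 GC boxes, 1 CCAAT motif and 1 SMAD element, and the Loxl4 window 3 GC boxes and 1 SMAD element. Of the 66 genes, 44 had a promoter in the table, and Matn2 was not among them. A GC box was found in 63.6% of the 44 windows and in 35.9% of 27025 promoters of the same length, and a SMAD element in 61.4% and 49.7%. The AP-1 motif was in 2.27% against 7.93%, the TATA box in 13.6% against 14.2%, the CCAAT motif in 36.4% against 37.9% and the hypoxia core in 11.4% against 19.7%. The median GC content was 60.3% in the 44 windows and 52.7% in all. A match is a description of letters and not a bound site.

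Fbln2, encoding the related fibulin-2, had 156.6 and 149.9 CPM at 3d and 123.7 and 136.4 at 30d, and lay just outside the threshold (log2 fold change -0.24 ± 0.05, adjusted p = 0.0582). At 0d it had 148.1 and 138.2 CPM. Its libraries at 30d were below those of all other days, but the 0d, 1d and 3d values lay close together. The difference was called in 9 of 21 alternatives, limma-voom, DESeq2, the replicate block and no filter on low counts among them. Fbln1 and Fbln7, the other fibulins, had fitted differences above 0, and their libraries of 3d and 30d overlapped. In the fit of all libraries Fbln5 was the fibulin that passed, and the difference between the fibulins was not tested.

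The calls of several fibrillar and basement membrane collagens depended on the 0d pools. Col1a2 had 552.5 and 345.2 CPM in the 0d pools, 366.4 and 370.3 in those of 1d, 421.4 and 423.2 in those of 3d, and 337.8 and 333.3 in those of 30d. Col1a1, its partner in type I collagen, had 403.8 and 227.0, 243.0 and 260.7, 282.0 and 276.6, and 220.0 and 221.9 CPM on the same days. Col3a1 had 302.3 and 178.3, 178.0 and 176.1, 182.8 and 190.8, and 156.7 and 159.9 CPM. In each of the 3 genes the pools of every later day lay close together, the 30d pair was the lowest, and 0d replicate 1 was the highest library. Col1a2 and Col1a1 differed between 30d and 3d by -0.33 and -0.34 on the log2 scale (adjusted p = 0.627 and 0.695).

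Type IV collagen showed the same order. Col4a1 had 237.8 and 167.9 CPM in the 0d pools, 187.6 and 169.6 in those of 1d, 189.3 and 193.3 in those of 3d, and 139.9 and 142.3 in those of 30d. Col4a2, whose chain joins that of Col4a1 in the same helix, had 149.9 and 103.3, 125.4 and 102.0, 125.0 and 126.9, and 96.1 and 94.1 CPM. For both genes, all 30d libraries lay below all those of the other days. The 30d to 3d differences were -0.44 and -0.41 on the log2 scale (adjusted p = 0.405 and 0.497). The minor chains Col4a3, Col4a4 and Col4a5, at 2.00 to 5.92 CPM, did not have 30d libraries below those of all other days, and the libraries of Col4a3 were higher at 30d than at 3d.

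With the 0d libraries left out of the fit, a choice made after the values were seen, 12 of the 66 genes were called between 30d and 3d, in a fit that called 1.48% of all genes. Those lower at 30d were 10: Col1a1, Col1a2, Col3a1, Col4a1, Col4a2, Fbln2, Fbln5, Lox, Loxl4 and Matn2. Col16a1 and Lamb2 were higher. The adjusted p was 0.000612 for both Col1a2 and Col4a1. The counts were also 12 without 0d replicate 1 (1.5% of all genes) and 12 without 0d replicate 2 (1.52%), and with the 3d and 30d libraries alone 13 were called, 9 lower and 4 higher (1.6%). The log2 fold changes themselves barely moved, by construction, since neither day compared was left out: that of Col4a1 was -0.44 in each of these fits.

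Col4a1 and Col4a2 are shown as sequence because they are neighbours that are read in opposite directions, with their start ends 3 bases apart in the table of counts (chromosome 8, Col4a1 from 11198423 to 11312826 on the minus strand, Col4a2 from 11312829 to 11449287 on the plus strand). Their promoter windows, chr8:11312777-11313076 (minus strand) and chr8:11312555-11312854 (plus strand) in GRCm38.p6, overlap by 78 bases, with capitals as above. The windows follow the RefSeq starts, and that of Col4a2 lies before the start in the table of counts and within the span of Col4a1.
Col4a1: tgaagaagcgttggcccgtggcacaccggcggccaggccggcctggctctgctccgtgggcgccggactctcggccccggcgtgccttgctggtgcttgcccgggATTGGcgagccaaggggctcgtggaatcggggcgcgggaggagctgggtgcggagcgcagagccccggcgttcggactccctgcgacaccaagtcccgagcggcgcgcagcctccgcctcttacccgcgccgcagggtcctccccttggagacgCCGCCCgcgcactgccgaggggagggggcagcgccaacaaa
Col4a2: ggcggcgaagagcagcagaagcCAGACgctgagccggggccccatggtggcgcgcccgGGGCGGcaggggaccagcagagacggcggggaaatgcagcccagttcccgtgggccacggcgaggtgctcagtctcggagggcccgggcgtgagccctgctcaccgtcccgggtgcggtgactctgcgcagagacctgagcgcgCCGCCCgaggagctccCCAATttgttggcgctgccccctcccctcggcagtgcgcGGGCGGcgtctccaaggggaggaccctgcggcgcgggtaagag
The Col4a1 window has a GC content of 74.0% and the Col4a2 window 73.7%, with 1 and 3 GC boxes and 1 CCAAT motif in each. The GC box of Col4a1 and the last one of Col4a2 are the same site, read from opposite strands in the bases that the windows share. The Col4a2 window also has 1 SMAD element. The pair kept the same order of days in both genes, as given by the values above. Col4a3 and Col4a4, on chromosome 1, are likewise read in opposite directions, with their start ends 72 bases apart.

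**Figure D4:**
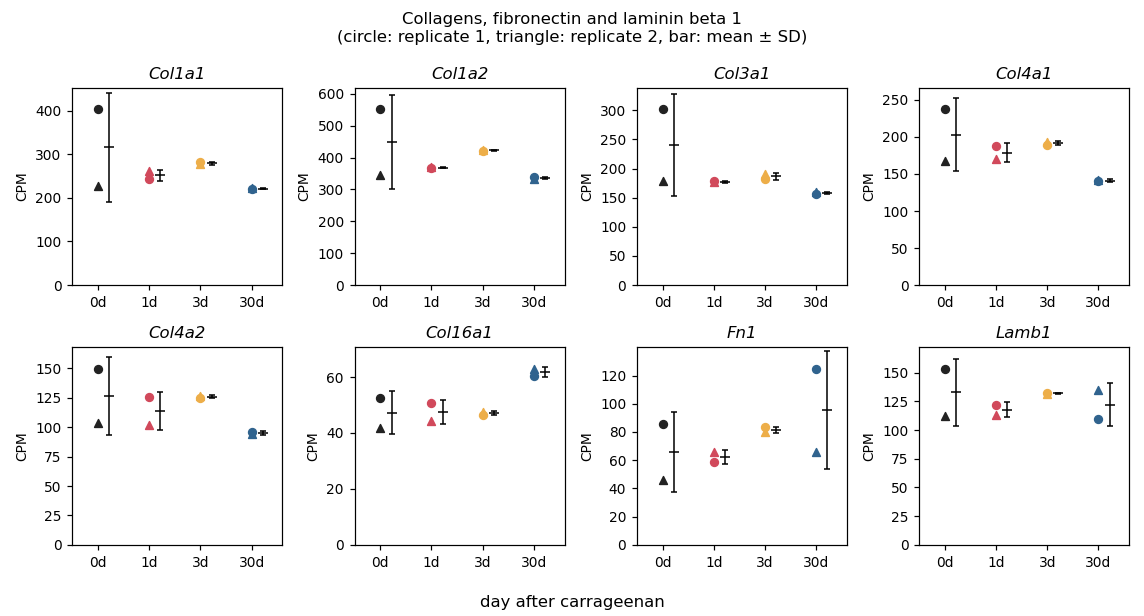
CPM of 6 collagen chains, fibronectin and the laminin chain Lamb1 in each library by day, with circles for replicate 1, triangles for replicate 2, and bars for mean ± SD. The 0d circle lies far above the 0d triangle in Col1a1, Col1a2 and Col3a1, and both 30d libraries of Col4a1 and Col4a2 lie below all others.

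Other collagens were higher at 30d than at 3d without passing the test. Col16a1, a fibril-associated collagen, had 52.6 and 41.7 CPM in the 0d pools, 50.6 and 44.4 in those of 1d, 46.6 and 47.6 in those of 3d, and 60.4 and 63.0 in those of 30d. Its 30d libraries were above all the others (30d against 3d, log2 fold change 0.39 ± 0.10, adjusted p = 0.1002), and it was called in 7 of 21 alternatives. Col20a1 had 1.52 and 1.86 CPM at 3d and 2.86 and 3.18 at 30d (0.84 ± 0.25, adjusted p = 0.154). Col27a1, a fibrillar collagen of cartilage, had 16.04 and 16.2 CPM at 3d and 26.5 and 24.9 at 30d (0.67 ± 0.29, adjusted p = 0.423), and its 1d pools, at 16.9 and 8.78 CPM, were far apart. Counted over the 66 genes, 23 had 30d libraries entirely above those of 3d and 17 entirely below, where 22.9% and 23.5% of all genes did so.

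Several matrix genes had one 30d pool apart from the other. Fibronectin had 124.9 CPM in 30d replicate 1 and 65.8 in replicate 2, against 83.2 and 79.9 at 3d, so the 30d pair spanned the 3d pair (log2 fold change 0.22 ± 0.44, adjusted p = 0.884). Col12a1 had 80.9 and 45.1 CPM at 30d, Fbln1 had 26.6 and 13.9, and Thbs1 had 36.1 and 21.2. In 30d replicate 1 the 11 leptomeninges markers summed to 374.5 CPM, against 223.5 in replicate 2, and the 11 skeletal muscle markers to 149.6 against 28.8 CPM. The Schwann cell markers summed to 6098 against 8476 CPM. The part of these cells in the values was not tested. With 0d replicate 1 and 30d replicate 1 both left out, chosen after seeing the data, 17 of the 66 genes were called between 30d and 3d, in a fit that called 9.11% of all genes.

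**Figure D5:**
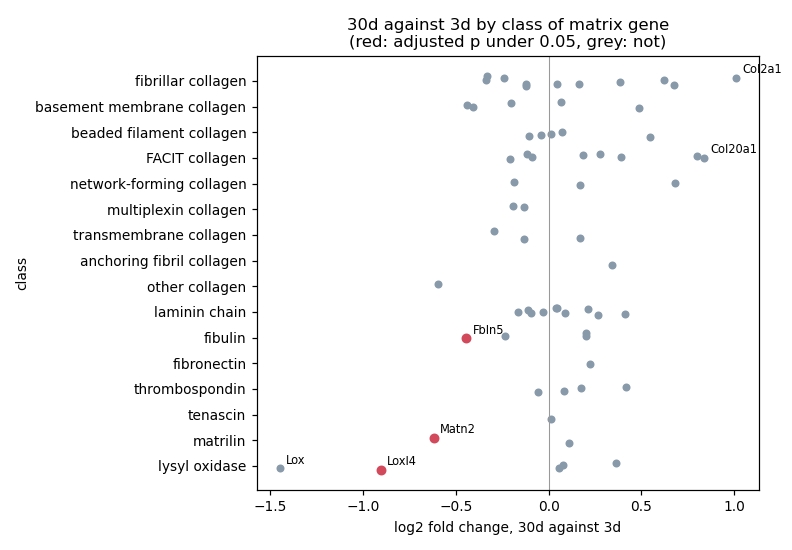
Log2 fold change of 30d against 3d for each of the 66 matrix genes, by class, from the fit of all 8 libraries. Red points passed at an adjusted p under 0.05 (Fbln5, Matn2 and Loxl4) and grey points did not; Lox lies farthest to the left at -1.45.

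The laminin chains, which build the basement membrane with type IV collagen, gave no call in the fit of all libraries. With single 0d libraries left out, Lamb2, Lamc1 and Lama4 were called in some comparisons of 2 days. Lamb1 had 153.6 and 111.8 CPM in the 0d pools, 122.2 and 113.1 in those of 1d, 132.2 and 131.8 in those of 3d, and 109.2 and 135.2 in those of 30d, where the 0d and the 30d pairs overlapped with those of every other day. Summed over the 10 chains, the level was 576.6 and 429.3 CPM in the 0d pools, 479.5 and 436.1 in those of 1d, 475.7 and 472.4 in those of 3d, and 467.9 and 488.2 in those of 30d, so the 0d pools enclosed all the later values.

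The remaining classes gave no call in the fit of all libraries. Thbs4, a thrombospondin of muscle and nerve, ran from 12.8 to 16.1 CPM over all libraries. Tnc, an adhesion-modulating glycoprotein of developing and injured tissue, had 4.27 and 3.46 CPM at 0d and 2.098 to 3.11 CPM on the later days (3d against 0d, log2 fold change -0.51 ± 0.24, adjusted p = 0.844). Col15a1, a basement membrane multiplexin, had 122.1 and 82.8 CPM at 0d and 70.7 to 82.7 CPM afterwards, and was called lower on each later day when 0d replicate 2 was left out (adjusted p from 0.000291 to 0.0029). Col8a1, a network-forming chain, ran from 15.2 to 25.2 CPM, and the transmembrane chain Col23a1 from 50.01 to 66.2 CPM. Col28a1, the beaded filament collagen, varied least between its day means, by 1.08-fold, with 81.6 to 99.1 CPM. Col7a1, of anchoring fibrils, had 2.83 to 6.38 CPM. Col2a1, the cartilage collagen, had 5.76 and 3.02 CPM at 0d and 5.93 in 30d replicate 2, against 1.95 to 2.48 CPM in all other libraries.

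The genes that make, cut and bind the matrix were followed as lists. Of 26 genes for the synthesis and processing of collagen, 1 was called, Plod3, a lysyl hydroxylase and glycosyltransferase, which had 72.0 and 68.0 CPM at 3d and fell to 59.1 and 51.6 at 30d (log2 fold change -0.34, adjusted p = 0.0257). Of 24 tested matrix proteases and inhibitors, 2 membrane-bound metalloproteinases fell between 3d and 30d: Mmp15 from 243.1 and 235.7 to 193.6 and 193.9 CPM (-0.30, adjusted p = 0.00201) and Mmp16 from 8.22 and 9.27 to 5.24 and 4.74 CPM (-0.81, adjusted p = 0.0234). Among 31 matrix receptors, the laminin-binding integrin chain Itga3 and the syndecan Sdc3 fell between 3d and 30d, by 0.30 and 0.27 on the log2 scale (adjusted p = 0.0224 and 0.0122). Between 30d and 3d, 0.935% of all genes were called (0.727% lower). No gene of these 3 lists was called higher in any comparison.

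In 28 small leucine-rich proteoglycans and fibre proteins, 1 gene was called, the fibroblast product Lum, which fell from 66.1 and 53.6 CPM at 0d to 43.1 and 41.9 at 1d (log2 fold change -0.49, adjusted p = 0.0326), in a comparison that called 0.346% of all genes. None of 18 other basement membrane and pericellular proteins and none of 23 genes of the TGF-beta axis, a known inducer of collagen genes, was called in any of the 5 comparisons. Most genes of these lists were also higher in 0d replicate 1: 26 of the 28 proteoglycan and fibre genes, 17 of the 18 basement membrane genes, 23 of the 26 collagen-processing genes and 21 of the 23 TGF-beta genes. The summed level there was 1.28, 1.25, 1.11 and 1.04 times that of 0d replicate 2. For the receptors this was 22 of 31, and for the proteases and inhibitors 17 of 24.

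Markers of other cells were called beside the matrix genes. Among the neuron markers, Calca rose between 0d and 3d (log2 fold change 0.32, adjusted p = 0.0237) and fell between 3d and 30d (-0.43, adjusted p = 0.00201), and Scn10a rose between 0d and 3d (0.22, adjusted p = 0.0499). The 15 neuron markers as a list lay on both sides of 0 between 0d and 3d, with 9 above it and a median of 0.02, and 3 of them lay above 0 between 3d and 30d, with a median of -0.05. The leptomeninges marker Slc6a13 rose from 7.37 and 6.89 CPM at 3d to 13.98 and 14.4 at 30d (adjusted p = 0.0110). The satellite glia marker Apoe was lower at 30d than at 3d (-0.23, adjusted p = 0.0128) and than at 0d (-0.28, adjusted p = 0.0322). The skeletal muscle marker Myh1 rose between 3d and 30d (1.35, adjusted p = 0.0292). It was lower than at 0d both at 1d (-1.47, adjusted p = 0.0324) and at 3d (-1.61, adjusted p = 0.0237). Over whole lists, all 11 leptomeninges markers were higher at 30d than at 3d (median log2 fold change 0.59), 1 of 10 Schwann cell markers was (median -0.28, with sums of 9839 and 9776 CPM at 3d and 6098 and 8476 at 30d), 1 of 6 satellite glia markers was (-0.18), and 6 of 11 muscle markers were (0.18, with sums of 85.2 and 82.9 CPM at 3d and 149.6 and 28.8 at 30d). None of the 11 muscle markers was higher at 3d than at 0d (median -0.87). The median over all genes was 0.00 in both comparisons. The summed fibroblast markers were 935.1 and 941.9 CPM at 3d and 970.6 and 1056 at 30d, and none of the 11 was called in that comparison. The part of these markers in the falls of Matn2, Fbln5 and Loxl4 was not tested.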

How the data were processed

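RNA-seq of dorsal root ganglia gave 8 libraries, 2 per day. The authors removed adapters (cutadapt 2.10), mapped the reads on mm10 (STAR 2.7.5a) and counted them per gene with featureCounts 2.0.1, without strand and counting a read for every gene it overlaps, and deposited raw counts per gene, without normalization. Columns were assigned to samples through their titles.

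The deposited counts were analysed in R 4.3.3 with edgeR 4.0.16 (filterByExpr, TMM, robust quasi-likelihood F-test, 17328 genes, Benjamini-Hochberg, threshold 0.05). CPM are counts scaled by TMM (factors 0.993 to 1.01). Log2 ratios of pools used CPM + 0.1. The common biological coefficient of variation was 8.85%. SE is the log2 fold change over the square root of F, and p-values measure only the spread between pools. Alternatives are in the closing section. Genes given in full were called genes, the 12 with the smallest p for any day, the highest per kb of each of 16 classes, and the 5 with the largest fold between days among those with at least 2 CPM. Col1a1, Col3a1, Col4a2, Col6a3, Col12a1, Fbln1, Thbs1, Lamb2 and the other Loxl genes were added after their values were seen. Members, the 6 pathway and 10 marker lists and the settings were chosen with earlier results of these data known. The list of 12 cartilage and bone markers summed to 79.6 to 94.3 CPM, that of 10 endothelial markers to 170.1 to 205.0, that of 9 mural markers to 199.5 to 227.2 and that of 8 macrophage markers to 67.4 to 82.4 CPM per library. In the macrophage list, Cx3cr1 fell between 0d and 3d. The values of 1 member are not reported here.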

Additional observations from a re-analysis of the deposited data

How the results depend on the processing

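The fold changes of Matn2 and Fbln5 between 30d and 3d kept their direction and their call in all 21 alternatives, from -0.64 to -0.60 and from -0.49 to -0.40 on the log2 scale. The numbers of matrix genes called did not hold as well, and the cause was not tested. For 3d against 0d the 2 calls became 1 (Loxl4, with Matn2 lost) with the compared days only, with a CPM filter, with RLE normalization and with the GC trend removed, and 0 with library size only and without robust estimation. With 0d replicate 1 and 30d replicate 1 both left out, an alternative added after seeing the data, 4 were called at 1d, 12 at 3d, 12 at 30d, 6 for 3d against 1d, 17 for 30d against 3d and 23 for any day, while 0.85%, 1.79%, 6.38%, 1.6%, 9.11% and 8.69% of all genes were. DESeq2 called 4 at 30d, 1 for 3d against 1d, 6 for 30d against 3d and 5 for any day. Of all genes it called 1.06%, 0.635%, 2.18% and 2.95% in the same order. With no filter on low counts, 2 were called at 30d (0.861% of all genes) and 1 for 3d against 1d (0.482%). With the compared days only, 4 were called for 3d against 1d (1.55% of all genes) and 13 for 30d against 3d (1.6%). With the 0d libraries left out of the fit, also added after seeing the data, these were 3 (0.355% of all genes) and 12 (1.48%). With 1 library left out in turn, the calls ran from 0 to 10 at 1d, 0 to 8 at 3d, 0 to 11 at 30d, 0 to 3 for 3d against 1d, 2 to 12 for 30d against 3d and 2 to 20 for any day, the highest each time without 0d replicate 2 (equalled without 0d replicate 1 in the comparisons of later days). A day left with 1 library is assumed to vary like the others.

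Replicate numbers did not pair the pools: their deviations correlated at -0.0144 to 0.0438 between days. With the replicate block, 1 gene was called at 30d in place of 0 (0.398% of all genes) and 4 for 30d against 3d (1.3%). The other counts did not move. With 2 pools a day, the spread between pools limits these comparisons, and for low genes such as Col22a1, with 9 to 79 counts per library, so does the depth.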
